A study of Mus musculus with 4 samples.

Results

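Neutrophils with under 3 UMIs of the chemokines Ccl3 and Ccl4 were 132 of 1241 filtered barcodes, and 132 of 2581 deposited barcodes, in 4 single-cell libraries of the mouse hind limb. A UMI (unique molecular identifier) marks 1 captured transcript. A barcode was counted when it had at least 200 genes, at most 20% mitochondrial UMIs and at least 2% of its UMIs from 7 neutrophil genes, S100a8, S100a9, Retnlg, Csf3r, Cxcr2, Il1r2 and Hdc. It also had under 5 UMIs of the keratins Krt5 and Krt14 and under 3 of the macrophage complement genes C1qa, C1qb and C1qc. The barcodes that met all of these limits and had under 3 summed Ccl3 and Ccl4 UMIs were chosen by these measured UMIs and are called members, and the 47 barcodes with 3 or more are called Ccl3/Ccl4 neutrophils. The name "without CC chemokine transcripts" did not hold strictly: 3 of 26 slie/slie and 18 of 103 control members of the injured limb held 1 or 2 Ccl3 and Ccl4 UMIs. Nor did it hold for Ccl6, another CC chemokine, which had 53 UMIs in slie/slie members and 160 in control members of the injured limb.

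The study set Ddr2 slie/slie mice, in which both copies of the collagen receptor gene Ddr2 carry the spontaneous slie deletion, against littermate controls. All mice received a dorsal burn over 30% of the body surface together with cutting of the left Achilles tendon, under isoflurane with buprenorphine, and tissue was taken on day 7. The groups were slie/slie injured (left tendon site), control injured (left tendon site), slie/slie uninjured (right limb of the same mice) and control uninjured (right limb of the same mice). The limbs of 2 mice were pooled in each, so every group was 1 library, the uninjured limb came from a burned animal, and age and sex were not in the labels used here. With 1 library per group there was no test between conditions: intervals are 95% and cover counting error only, and the mice within a pool cannot be told apart.

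Neutrophils are short-lived granulocytes that leave the bone marrow for blood and enter injured tissue within hours. Their granule proteins are made mostly during maturation in the marrow, while chemokines, cytokines and receptors change in blood and tissue under microbial, cytokine and adhesion signals that act in part through NF-kB. Ccl3 and Ccl4 attract monocytes, other neutrophils and lymphocytes, and Cxcl2 draws neutrophils through the receptor Cxcr2.

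The members stood in 3 of the 4 libraries. There were 26 among 246 filtered barcodes of the slie/slie injured limb (10.6%, Clopper-Pearson interval 7.02 to 15.1) and 103 among 751 of the control injured limb (13.7%, 11.3 to 16.4). With 1 pooled library per genotype these shares describe the libraries, and a genotype difference in share was not tested. The slie/slie uninjured limb held 3 among 184 (1.63%, 0.338 to 4.69) and the control uninjured limb 0 of 60, with a Clopper-Pearson upper limit of 5.96%. Members made up 66.7% of the 39 slie/slie and 75.2% of the 137 control injured neutrophils found by the same limits.

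The libraries had 1493147 (slie/slie injured), 4515174 (control injured), 1540053 (slie/slie uninjured) and 579790 (control uninjured) UMIs in all. Summed over members, 42693 UMIs stood behind the slie/slie injured values and 143766 behind the control injured values. A slie/slie member of the injured limb had 421 to 4418 UMIs (median 1632.5) and 204 to 1165 genes (median 578), and a control member had 506 to 4583 UMIs (median 1145) and 201 to 1183 genes (median 526). Mitochondrial UMIs were under 0.5% in 23 of 26 slie/slie and 88 of 103 control members of the injured limb, against 56.0% and 42.3% of the other filtered cells of the same 2 libraries. A doublet caller marked 1 slie/slie injured member, and no member carried a barcode that another library shared.

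**Figure D1:**
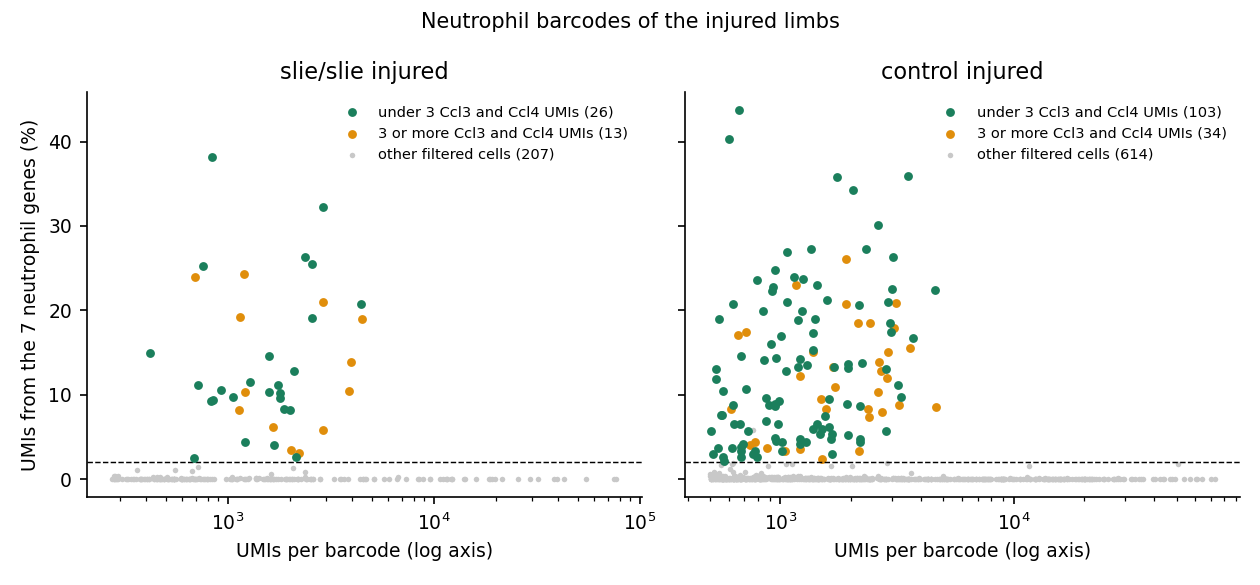
UMIs per barcode (x, log axis) against the percent of UMIs from the 7 neutrophil genes (y) for filtered barcodes of the slie/slie (left) and control (right) injured limbs. The 26 and 103 members and the 13 and 34 Ccl3/Ccl4 neutrophils lie above the 2% line, and 207 and 614 other cells lie below it or were left out by another limit.

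Levels of the markers that the neutrophil label was built from are given as a description. The limit on these genes chose the members, so the levels cannot check the label. S100a9, a calcium-binding protein of the neutrophil cytosol, had 3714 UMIs in slie/slie and 11375 in control members, or 86993 and 79122 UMIs per 1000000 UMIs of the summed members (CPM). In the other filtered cells of these libraries S100a9 was at 50.1 CPM in slie/slie and 222 CPM in control. Csf3r, the receptor for granulocyte colony-stimulating factor, was at 1429 CPM in slie/slie and 1210 CPM in control members, and Cxcr2 at 1523 and 1426 CPM. Retnlg, a secreted factor of circulating and marrow neutrophils, was at 2787 CPM in slie/slie and 1975 CPM in control members, but only 12 of 26 and 43 of 103 members held a UMI of it. Median shares of the 7 genes were 10.8% in slie/slie and 10.7% in control members. Near the 2% limit, 2 slie/slie and 6 control members lay between 2 and 3%, and 4 slie/slie and 13 control barcodes just missed it with 1 to 2%. The highest share under the limit was 1.39% in the slie/slie and 1.92% in the control library, and the lowest member had 2.47% and 2.09%.

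Markers of other cell types were low but not at 0, and were unequal between genotypes. Of the 10 mesenchymal markers, 4 were detected in slie/slie members, with 8 UMIs in 6 cells (187 CPM), and 8 in control members, with 125 UMIs in 55 cells (869 CPM); the other filtered cells had 19816 and 23234 CPM. Macrophage markers gave 351 CPM in slie/slie and 438 CPM in control members, with 3 and 7 of 10 detected. Monocyte markers gave 46.8 CPM in slie/slie and 223 CPM in control members, and keratinocyte markers 1 and 26 UMIs, with 24 in 1 control cell. B cell and mast or basophil markers were at 0 in members of both injured libraries, and hemoglobin and other erythroid markers at 960 CPM in slie/slie and 1078 CPM in control members. No slie/slie member and 6 control members held 5 or more UMIs of macrophage, mesenchymal or keratinocyte markers. Ddr2 had no UMI in members of either genotype, and in the other filtered cells of the injured limb it had 0 UMIs in slie/slie and 115 in control, at least 9.42-fold lower in slie/slie.

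Apart from the S100 genes, the transcripts with most UMIs in members included cytokine, chemokine and iron storage genes. The counts come from the 3′ end and are not divided by transcript length. Il1b, which encodes the cytokine interleukin 1 beta, had 764 UMIs in slie/slie and 2124 in control members (17895 and 14774 CPM), with a UMI in 25 of 26 and 100 of 103 cells. Cxcl2 had 727 UMIs in slie/slie and 2073 in control members (17029 and 14419 CPM), but in 19 of 26 and 58 of 103 cells. Il1b was thus spread over nearly all members and Cxcl2 over part of them. Srgn, the proteoglycan core of secretory granules, was at 15576 CPM in slie/slie and 9696 CPM in control members, and Cd14, the lipopolysaccharide co-receptor, at 13164 and 3631 CPM. Fth1, the ferritin heavy chain, was at 14265 CPM in slie/slie and 19393 CPM in control members, and the interferon-inducible membrane protein gene Ifitm2 at 8175 and 6886 CPM.

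Some genes of the marrow stages had few UMIs in members. The specific granule genes Ngp, Ltf and Camp had 0, 0 and 0 UMIs in slie/slie members and 15, 2 and 0 in control members, and no primary granule gene of the list reached 30 UMIs. Other secondary and tertiary granule genes had more, such as Hp with 89 UMIs in slie/slie members. That whole list made up 0.682% of UMIs in slie/slie and 0.936% in control members, against 0.156% and 0.392% in the other filtered cells. The gelatinase Mmp9 was at 328 CPM in slie/slie and 577 CPM in control members. Cxcr4, the receptor that returns ageing neutrophils to the marrow, was at 632 CPM in slie/slie and 417 CPM in control members.

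Levels per cell varied widely among members. Cxcl2 was at 0 in 7 of 26 slie/slie members, with a median of 9.13 and a highest value of 177 UMIs per 1000 UMIs of the cell, and at 0 in 45 of 103 control members, with a median of 1.10 and a highest value of 225. Cd14 was at 0 in 2 slie/slie members (median 11.6, highest 35.6) and in 51 control members (median 0.271, highest 33.6). The ranges overlapped for both genes, and 51 of 103 control members had no Cd14 UMI. Il1b was at 0 in 1 slie/slie member (median 18.1, highest 40.6) and in 3 control members (median 10.9, highest 68.5). Retnlg had a median of 0 in both, with highest values of 22.5 in slie/slie and 25.8 in control members.

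**Figure D2:**
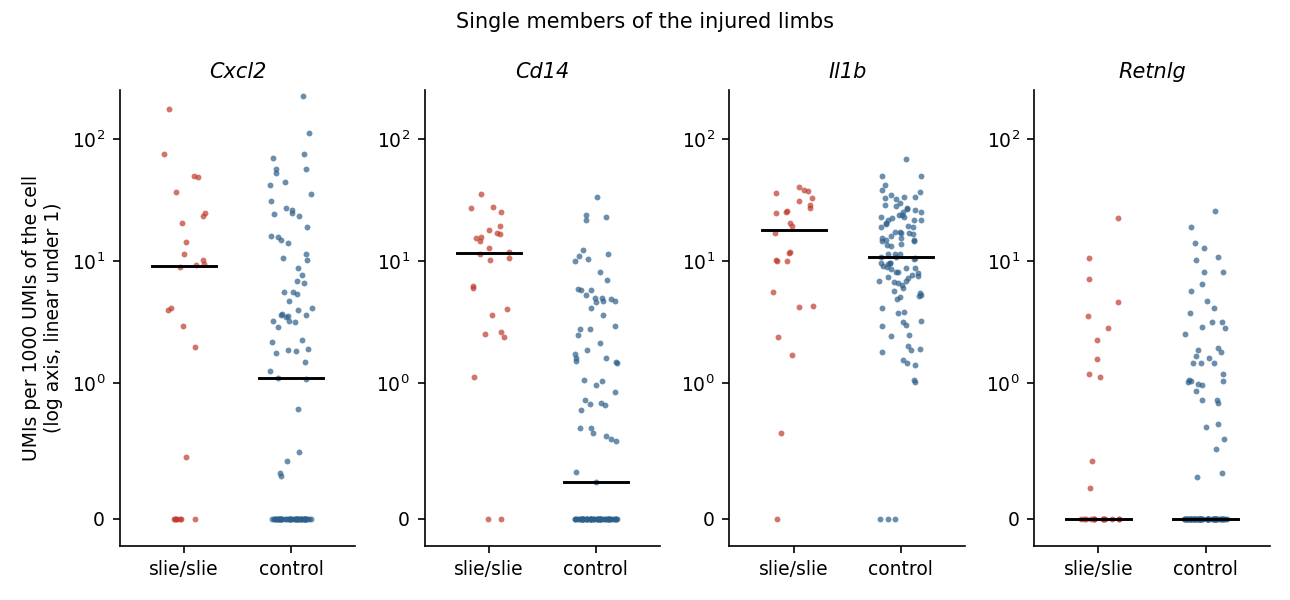
UMIs per 1000 UMIs of the cell (y, log axis, linear under 1) in each injured-limb member for Cxcl2, Cd14, Il1b and Retnlg, with 26 slie/slie members left and 103 control members right in each panel, and a bar at the median. Cd14 is at 0 in 2 slie/slie and 51 control members, while Il1b is at 0 in 1 and 3.

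Within the members, some genes varied with Cxcl2 from cell to cell. Spearman's rho with Cxcl2 per cell was 0.84 over 26 slie/slie and 0.45 over 103 control members for Ier3, an NF-kB-induced stress gene, 0.51 and 0.44 for Il1b, and 0.43 and 0.45 for Cd14. Nfkbia, the NF-kB inhibitor that NF-kB itself induces, had 0.48 in slie/slie and 0.25 in control members. The opposite sign stood for Tmsb4x, an actin-binding peptide (-0.46 in slie/slie, -0.33 in control), Alox5ap, which serves leukotriene synthesis (-0.41, -0.22), and Cxcr2 (-0.21, -0.30). With cells thinned to 500 UMIs Ier3 had 0.64 in slie/slie and 0.47 in control members, and Cxcr2 had -0.04 in slie/slie and -0.19 in control members. Retnlg had -0.35 in slie/slie and 0.12 in control members, and -0.33 and -0.05 after thinning. These are descriptions across cells of 1 library each, which share depth and composition.

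Between genotypes, members of the injured limb had higher Cd14, Thbs1, Spp1 and G0s2 and lower Ifitm3, Slfn4 and Ltb in slie/slie, while none of the 13 measured genes of the neutrophil receptor and identity list passed 2-fold. Of 841 genes with 30 or more UMIs over both libraries, 46 (5.47%) were 2-fold or more higher and 107 (12.7%) 2-fold or more lower in slie/slie than in control members, with a median log2 ratio of -0.10. The counting interval of the ratio left out 1 for 91 genes on the higher and 98 on the lower side. The median log2 ratio of that list was 0.32. Of the 2 measured CXC chemokines, Cxcl2 and Cxcl3, neither passed 2-fold. The log2 ratio of Cxcl2 was 0.24, and it was 0.97 with cells thinned to 500 UMIs, 0.88 with cells weighted equally, 0.85 without the 3 deepest cells and -0.07 at a minimum of 500 genes.

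Cd14 had 562 UMIs in 24 of 26 slie/slie members and 522 UMIs in 52 of 103 control members, 3.63-fold higher in CPM (3.21 to 4.09). The cell with most held 91 of these UMIs in slie/slie and 154 in control, and without those cells Cd14 was 4.44-fold higher. The log2 ratio was 1.86 and ran from 1.79 to 4.99 over the other settings, several of them outside the counting interval. With each cell thinned to 500 UMIs, leaving out 1 slie/slie member, Cd14 was found in 22 of 25 slie/slie (88%, 68.8 to 97.5) and 39 of 103 control members (37.9%, 28.5 to 48.0), against 6.21% and 4.23% of the other filtered cells, which include macrophages. The Ccl3/Ccl4 neutrophils had 3.32-fold more Cd14 in slie/slie than in control, and the other cells of the injured limb 1.43-fold less. The unthinned shares were 92.3% in slie/slie and 50.5% in control members, at median depths of 1632.5 and 1145 UMIs.

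Other genes higher in slie/slie members included secreted and matrix proteins. Thbs1, which encodes the matrix protein thrombospondin 1, had 48 UMIs in 9 slie/slie and 21 UMIs in 9 control members, 7.70-fold higher (4.52 to 13.5), and was 3.81-fold higher in slie/slie Ccl3/Ccl4 neutrophils. Spp1, the secreted phosphoprotein osteopontin, had 170 UMIs in 10 slie/slie and 168 UMIs in 24 control members, 3.41-fold higher (2.74 to 4.24), with 72 UMIs in 1 cell of each library. Without those cells Spp1 was 3.55-fold higher. Slpi, an inhibitor of leukocyte serine proteases, had 333 UMIs in slie/slie and 451 in control members, 2.49-fold higher (2.15 to 2.87), while it was 1.23-fold lower in slie/slie Ccl3/Ccl4 neutrophils and 4.46-fold lower in the other cells. The Spp1 and Thbs1 levels of the other cells were 2.29-fold and 1.89-fold lower in slie/slie.

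G0s2, Crem, Id2, Ier3, Jdp2, Emd, Tnfrsf23 and Ifrd1 completed the named genes of the higher side. G0s2, an inhibitor of the triglyceride lipase Pnpla2, had 168 UMIs in 14 slie/slie and 149 UMIs in 29 control members, 3.80-fold higher (3.03 to 4.77). The cell with most held 61 of these UMIs in slie/slie and 45 in control, and without those cells G0s2 was 3.61-fold higher. Crem, a cyclic AMP-responsive transcription factor, had 24 UMIs in 11 slie/slie and 7 UMIs in 5 control members, 11.6-fold higher (4.83 to 31.7). Id2, an inhibitor of helix-loop-helix factors, was 4.31-fold higher (32 UMIs in slie/slie, 25 in control members), Ier3 2.43-fold higher (150 in slie/slie, 208 in control), Jdp2, an AP-1 family factor, 2.87-fold higher (46 in slie/slie, 54 in control), and Emd, a nuclear envelope protein, 5.22-fold higher (31 in slie/slie, 20 in control). Tnfrsf23, a decoy receptor of the death ligand TRAIL, had 33 UMIs in slie/slie and 18 in control members, a 6.17-fold difference of which 21 UMIs lay in 1 slie/slie cell; without the cell with most in each library it was 2.57-fold higher. Ifrd1, a transcriptional co-regulator, likewise had 21 of its 35 slie/slie UMIs in 1 cell, and its 3.37-fold difference was 2.01-fold without the top cells and a log2 ratio of 0.79 with no Ccl3 or Ccl4 UMI allowed. Ier3 had a log2 ratio of 0.96 after thinning and 0.87 with cells weighted equally.

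The lower side held interferon-induced genes and genes with few slie/slie UMIs. Ifitm3, an interferon-induced antiviral membrane protein, had 17 UMIs in 9 slie/slie and 205 UMIs in 61 control members, 3.58-fold lower (2.18 to 6.27). Its level in the other filtered cells was 1351 CPM in slie/slie and 1522 CPM in control, close to the 1426 CPM of control members. Thinned to 500 UMIs, Ifitm3 was in 8% of slie/slie and 41.7% of control members, against 35.4% and 39.6% of other cells, so the control share does not stand above that of the other cells. Slfn4, an interferon-induced gene of myeloid cells, had 22 UMIs in 13 slie/slie and 205 UMIs in 62 control members, 2.77-fold lower (1.78 to 4.51), and was at 10.7 CPM in slie/slie and 8.90 CPM in control other cells. After the same thinning, Slfn4 was in 24% of slie/slie (9.36 to 45.1) and 35.9% of control members (26.7 to 46.0), with overlapping intervals. Ltb, the membrane cytokine lymphotoxin beta, had 9 UMIs in slie/slie and 97 in control members, 3.20-fold lower (1.62 to 7.21). It was 7.16-fold lower in slie/slie Ccl3/Ccl4 neutrophils, which held only 2 UMIs of it. Il1f9, an interleukin 1 family cytokine, had 7 UMIs in slie/slie and 78 in control members, 3.31-fold lower (1.53 to 8.50), but its log2 ratio was -0.04 with cells thinned to 500 UMIs.

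Several of the lowest ratios rested on few UMIs or on 1 cell. Fabp5, a fatty acid carrier, had 3 UMIs in slie/slie and 86 in control members, 56 of them in 1 control cell; it was 8.51-fold lower, and 4.21-fold lower without the top cells. Stfa2, a cysteine protease inhibitor with near-identical neighbours among which reads may be split, had 1 UMI in slie/slie and 55 in control members, 36 in 1 cell, and Lcn2, the siderophore-binding granule protein, had 8 and 88 UMIs, 32 in 1 control cell. Ptma, a chromatin-associated acidic protein, had 3 UMIs in slie/slie and 69 in control members (6.83-fold lower), and the Golgi protein gene Golgb1 had 0 and 30 UMIs, at least 2.97-fold lower against a floor of 3 UMIs over the slie/slie members. Crebrf, a regulator of a stress-responsive transcription factor, had 1 UMI in slie/slie and 32 in control members, and Tmem14c, a mitochondrial membrane protein, 1 and 31.

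Col1a1, the chain of type I collagen that fibroblasts make, had 2 UMIs in slie/slie and 49 in control members, beside 9060 and 9655 CPM in the other cells. Col1a1 is itself among the mesenchymal markers given above, so their lower level in slie/slie members partly counts the same UMIs. Fabp5, Ptma and the ribosomal protein genes are also abundant outside neutrophils. Fabp5 was at 2425 CPM in slie/slie and 3322 CPM in control other cells, and Ptma at 3028 and 2714 CPM. The part of RNA from other cells in the lower side was not tested. Without the members with 5 or more UMIs of foreign markers, a choice made after the values were seen, the log2 ratio of Fabp5 was -1.61, of Col1a1 -2.34 and of Ptma -2.80. The foreign markers include Col1a1, so for Col1a1 this choice acts on its own UMIs. With a minimum of 100 genes, also chosen afterwards, Col1a1 was at -0.05.

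**Figure D3:**
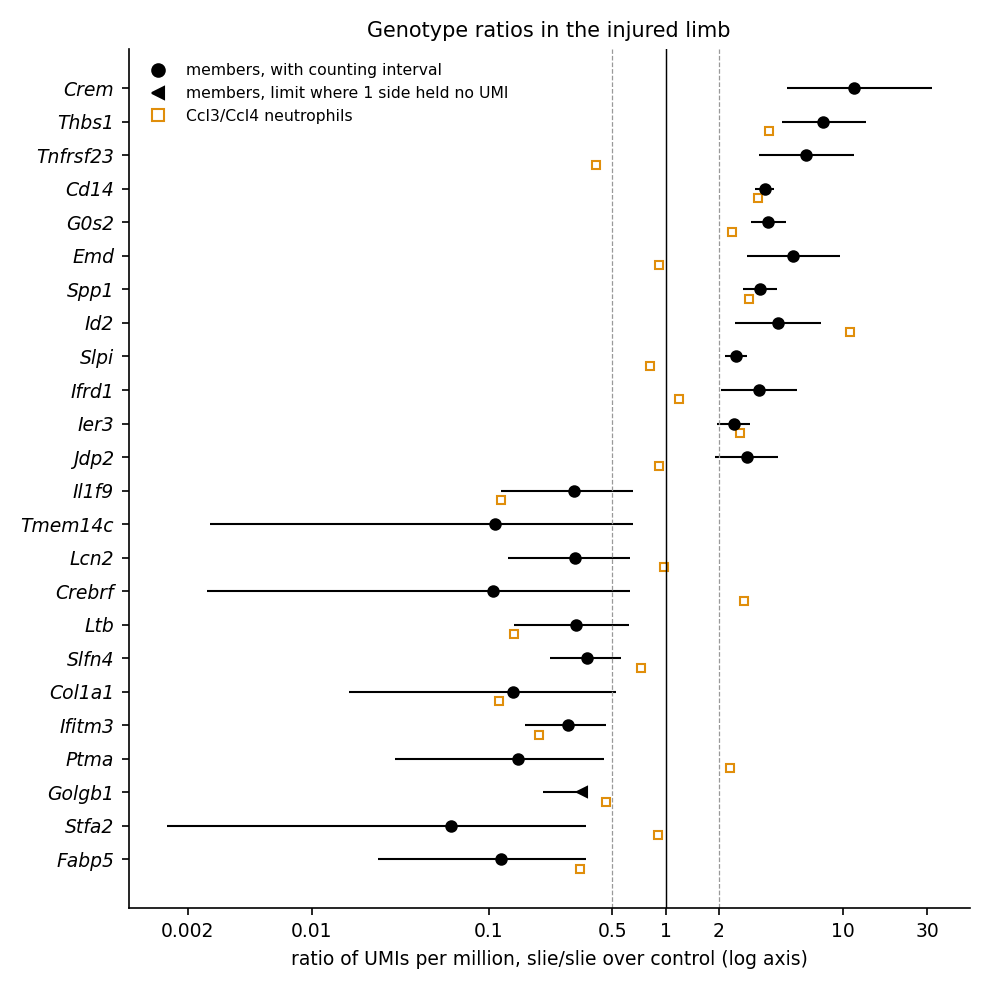
Ratio of CPM, slie/slie over control injured limb (x, log axis), for the 12 named genes on each side in members (circles with counting intervals, a triangle for Golgb1, which had no slie/slie UMI) and in Ccl3/Ccl4 neutrophils (open squares). Cd14, G0s2, Spp1, Thbs1, Id2 and Ier3 lie right of 2 in both kinds of neutrophil, while Tnfrsf23, Emd, Slpi and Jdp2 lie left of 1 in the Ccl3/Ccl4 neutrophils.

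Interferon response and ribosomal protein genes held most of the lower list members and the ageing and tissue state list had more higher genes than any other list, each count to be read beside 5.47% higher, 12.7% lower and a median log2 ratio of -0.10 over all genes. Of 9 measured interferon response genes, 0 were 2-fold or more higher and 5 lower (median -1.003). The 5 were Ifitm3, Slfn4, Slfn1 (15 UMIs in slie/slie, 117 in control members), Isg15 (12 in slie/slie, 100 in control) and Irf1 (4 in slie/slie, 27 in control), whereas Ifitm1 was at 4731 CPM in slie/slie and 4723 CPM in control members. Isg15, a ubiquitin-like protein, was also 2.55-fold lower in slie/slie Ccl3/Ccl4 neutrophils, which held 8 UMIs of it, and 1.90-fold lower in the other cells. Of 10 secondary and tertiary granule genes, 0 were higher and 3 lower (median -0.66), namely Lcn2, the lysozyme gene Lyz2 (12 UMIs in slie/slie, 89 in control members) and Cyba (23 in slie/slie, 183 in control), which encodes an oxidase subunit. Cyba was the 1 lower gene of 4 in the NADPH oxidase list (median -0.39), and it was 2.37-fold lower in the other slie/slie cells too.

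The list of ageing and tissue state genes had 5 of 12 higher and 0 lower (median 0.51), Spp1, Thbs1, Tnfrsf23, Jdp2 and the atypical chemoattractant receptor Ccrl2 (48 UMIs in slie/slie, 61 in control members). Of 8 apoptosis and survival genes 3 were higher and 0 lower (median 0.40), the cell death activator Bcl2l11 and the cytokine receptor chains Csf2ra and Csf2rb. Of 15 immediate early genes 3 were higher and 0 lower (median 0.58), Jun, Egr1 and Ier3. Of 4 pattern recognition genes 2 were higher (median 0.96), Cd14 and the inflammasome sensor Nlrp3, which had 40 UMIs in slie/slie and 50 in control members. The NF-kB and inflammatory list had 2 of 12 higher, Cd14 and Ier3, and 1 lower, Tnf, with 4 UMIs in slie/slie and 31 in control members (median 0.31). Glycolysis and lactate export had 1 of 11 higher and 0 lower (median 0.60), the lactate exporter Slc16a3 with 87 UMIs in slie/slie and 137 in control members, while Gapdh was 1.83-fold higher. Hypoxia had 1 of 8 higher, the mitophagy receptor Bnip3 with 20 UMIs in slie/slie and 22 in control members (median 0.63).

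Chemotactic and homing receptors had 1 of 13 higher, Ccrl2 (median 0.01), and efferocytosis and matrix enzymes 1 of 8, Thbs1 (median 0.30). Both genes were already counted in the ageing and tissue state list, so the lists are not separate. In the lipid list 1 of 5 was higher, G0s2, and 1 lower, Fabp5 (median 0.34). Iron and oxidative stress had 1 of 7 lower, Gpx1 (median -0.35), and MHC genes 1 of 3 lower, B2m, with 35 UMIs in slie/slie and 254 in control members (median -0.68). TGF beta and growth factors had 1 of 3 higher, Thbs1 (median 0.82). S100 proteins outside the rule had 0 of 2 (median 0.38), the CC chemokine Ccl6 and the cell cycle gene Hmgb2 were the only measured members of their lists and did not pass 2-fold, and no primary granule gene was measured. Cytosolic ribosomal protein genes had 0 of 57 higher and 19 lower (median -0.69), and made up 2.09% of UMIs in slie/slie and 3.18% in control members, against 16.6% and 14.9% in the other cells. Ribosomal protein genes and mesenchymal markers were thus lower together in slie/slie members, and their part in the counts of the lists was not tested.

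Members were next set beside the Ccl3/Ccl4 neutrophils of the same library. The limit on Ccl3 and Ccl4 made this split, so the values are a description. Members were shallower, with a median of 1632.5 UMIs against 2029 in slie/slie Ccl3/Ccl4 neutrophils and 1145 against 1910.5 in control. Ccl3 and Ccl4 UMIs were 0 in 23 of 26 slie/slie and 85 of 103 control members, and had a median of 17 in slie/slie and 19 in control Ccl3/Ccl4 neutrophils. Just over the limit, 3 slie/slie and 6 control cells held 3 to 5. In slie/slie 57 of 293 measured genes (19.5%) were 2-fold or more higher in members and 37 (12.6%) lower; in control 248 of 917 (27%) were higher and 111 (12.1%) lower. Of 290 genes measured in both libraries 25 (8.62%) were higher and 21 (7.24%) lower in both, and 231 (79.7%) had the same direction.

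Cxcl2, Cxcl3 and several NF-kB and inflammatory genes were lower in members than in the Ccl3/Ccl4 neutrophils, and Ccl6 was not. Cxcl2 was at 17029 CPM in slie/slie members and 104111 CPM in slie/slie Ccl3/Ccl4 neutrophils, 6.11-fold lower, and at 14419 and 64274 CPM in control, 4.46-fold lower. Cxcl3, a related Cxcr2 ligand, had 24 UMIs in members and 79 in Ccl3/Ccl4 neutrophils of slie/slie, 4.78-fold lower, and 72 and 323 UMIs in control, 9.51-fold lower. Il1rn, the natural antagonist of the interleukin 1 receptor, was 5.86-fold lower in slie/slie and 3.91-fold lower in control members. Nfkbia was 2.42-fold lower in slie/slie and 3.06-fold lower in control members, and the niacin and ketone body receptor gene Hcar2 5.21-fold and 4.93-fold lower. The stress genes Atf3 (6.13-fold and 5.83-fold) and Ppp1r15a (2.56-fold and 3.17-fold) were lower too, as were Ier3, Spp1, Ifrd1, Cstb and BC018473. The NF-kB and inflammatory list had 0 genes higher and 6 of 11 lower in slie/slie members, and 0 higher and 9 of 14 lower in control members, with medians of -1.21 and -1.33 beside 0.20 and 0.38 over all genes. Ccl6 was 1.46-fold higher in slie/slie members (53 UMIs, against 25 in Ccl3/Ccl4 neutrophils) and 1.84-fold higher in control members (160, against 41). Il1b was 1.05-fold higher in slie/slie and 1.16-fold lower in control members.

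Hp, Coro1a, Tmsb4x, Alox5ap and Picalm were among the genes higher in members in both libraries. The haptoglobin gene Hp had 89 UMIs in members and 8 in Ccl3/Ccl4 neutrophils of slie/slie, 7.67-fold higher (3.73 to 18.3), and 319 and 65 UMIs in control, 2.32-fold higher (1.77 to 3.07). Coro1a, an actin regulator of leukocyte movement, was 3.64-fold higher in slie/slie and 4.36-fold higher in control members, Tmsb4x 2.64-fold and 2.18-fold, and Alox5ap 3.85-fold and 2.91-fold. Anxa2, a membrane-binding annexin, was 8.96-fold higher in slie/slie, where the Ccl3/Ccl4 neutrophils had 3 UMIs, and 2.89-fold in control. Pirb, an inhibitory receptor, was 4.37-fold and 2.92-fold higher, the immediate early factor Fos 3.79-fold and 2.19-fold, and the clathrin assembly gene Picalm 4.48-fold and 4.21-fold. Hmgb2, Taldo1 and Msrb1 were also higher in both libraries. Among the genes of the rule, Csf3r was 4.20-fold higher in slie/slie and 3.42-fold higher in control members, and Cxcr2 2.24-fold and 3.58-fold. The rest of the 7 were not all far from level. In slie/slie, Retnlg was 4.10-fold, Il1r2 1.81-fold, S100a8 1.21-fold, S100a9 1.14-fold and Hdc 1.07-fold higher in members.

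Counts of the other lists stand beside 19.5% higher and 12.6% lower over all genes in slie/slie and 27% higher and 12.1% lower in control. Secondary and tertiary granule genes had 3 of 6 higher and 1 lower in slie/slie members and 2 of 9 higher and 0 lower in control members (medians 1.39 and 0.52), and interferon response genes 2 of 3 and 4 of 9 higher with 0 lower (1.10 and 0.76). Iron and oxidative stress genes had 0 of 5 higher and 1 lower in slie/slie but 2 of 10 higher and 7 lower in control members (medians -0.65 and -1.33), and Fth1 was 1.28-fold and 2.85-fold lower. Glycolysis genes had 0 of 7 past 2-fold in slie/slie and 4 of 13 lower in control members. Ribosomal protein genes had 2 of 13 higher in slie/slie and 8 of 61 higher in control members, with 0 lower.

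**Figure D4:**
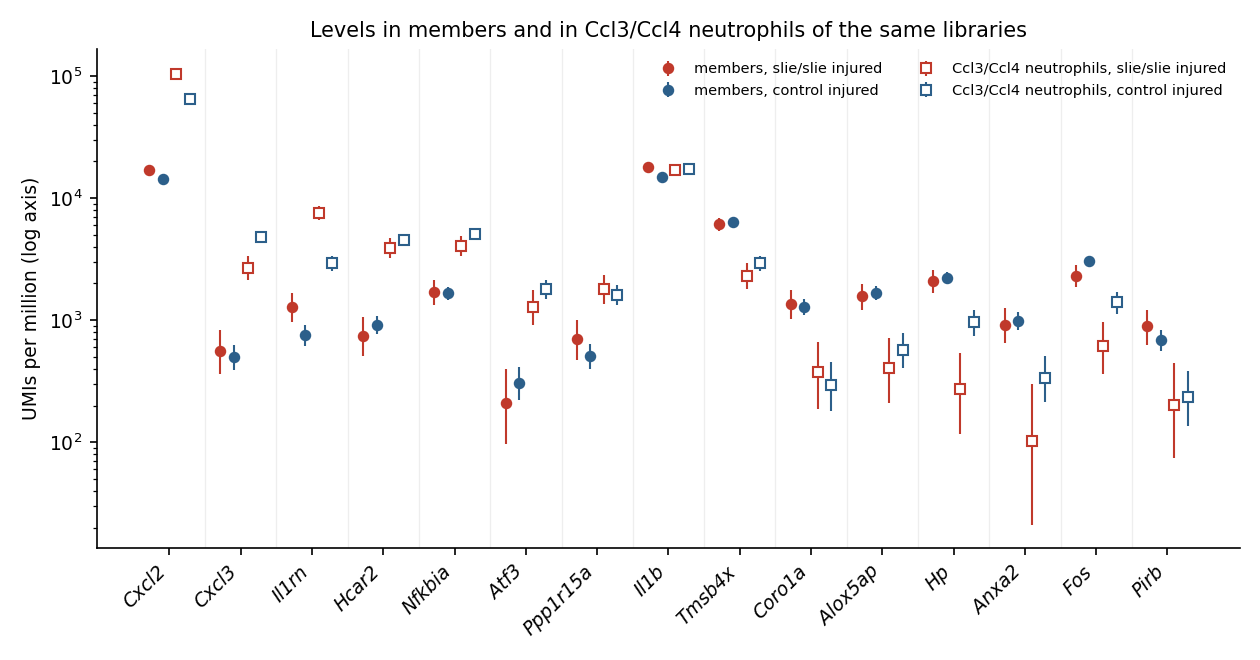
CPM (y, log axis) of 15 genes in members (filled circles) and Ccl3/Ccl4 neutrophils (open squares) of the slie/slie (red) and control (blue) injured limbs, with Poisson intervals of the summed counts. From Cxcl2 to Ppp1r15a the circles lie below the squares in both libraries, Il1b lies level, and from Tmsb4x to Pirb the circles lie above.

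**Figure D5:**
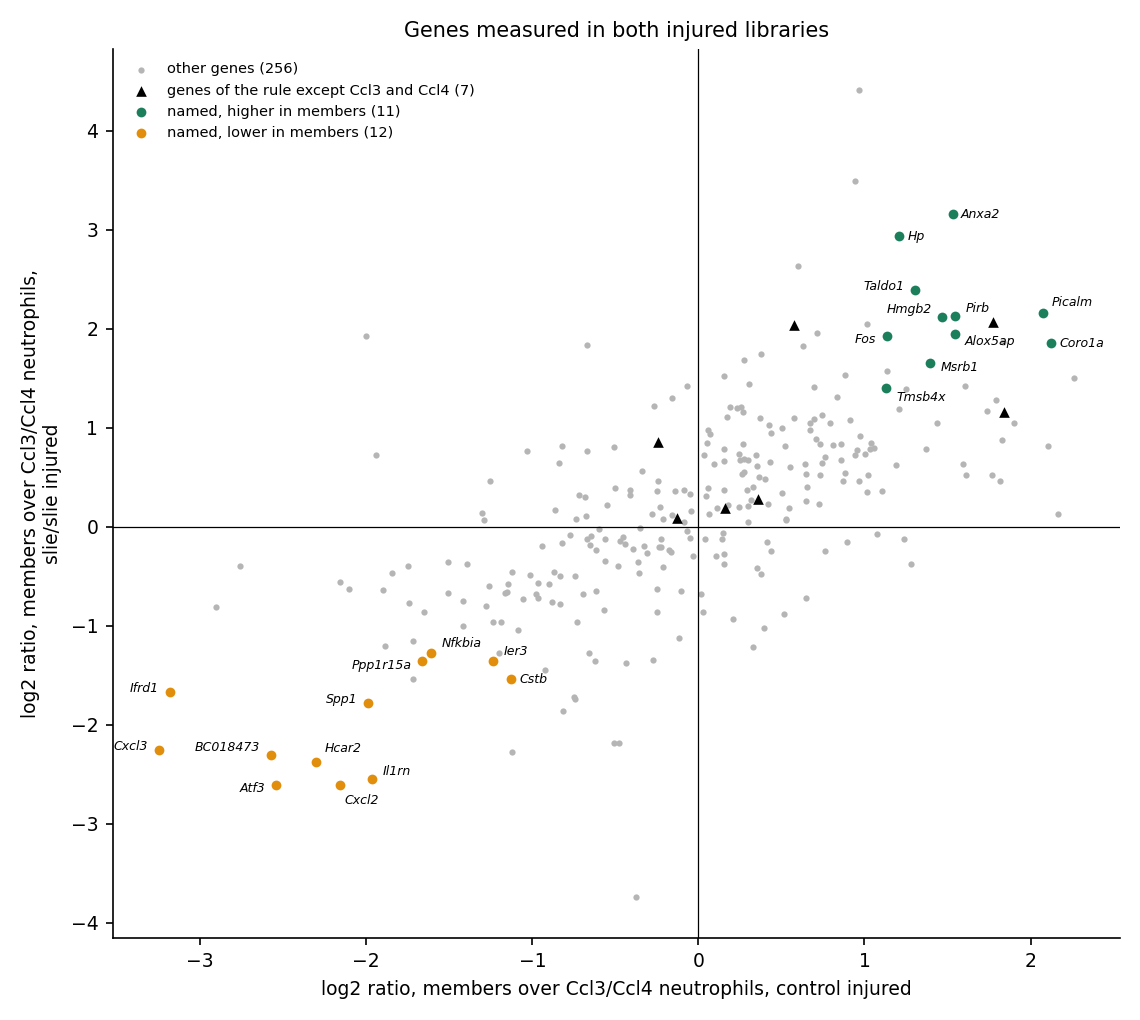
Log2 ratio of members over Ccl3/Ccl4 neutrophils in the control (x) and slie/slie (y) injured limb for 286 genes measured in both, with the 7 neutrophil genes of the rule as triangles and named genes in colour (11 higher and 12 lower in members). Of all 290 genes measured in both, 231 had the same sign on both axes.

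The levels did not all turn at the limit of 3 Ccl3 and Ccl4 UMIs. Over cells with 0, 1 to 2, 3 to 9, and 10 or more Ccl3 and Ccl4 UMIs, Cxcl2 was at 14586, 43430, 37474 and 129241 CPM in slie/slie (23, 3, 4 and 9 cells) and at 11528, 26351, 19579 and 83894 CPM in control (85, 18, 12 and 22 cells). The step was largest at 10 or more UMIs in both libraries. Csf3r was at 1433, 1383, 1117 and 46.8 CPM in slie/slie and at 1322, 749, 774 and 170 CPM in control over the same steps. Hp was at 2150, 1383, 993 and 0 CPM in slie/slie and 2385, 1533, 1692 and 637 CPM in control, while Il1b stayed between 15387 and 18041 CPM in slie/slie and between 8364 and 20989 CPM in control. Depth differed between the steps, with medians of 1673, 1057, 1211 and 2210 UMIs in slie/slie and 1069, 1280, 1588 and 2271 UMIs in control, and in both libraries the step of 10 or more was the deepest.

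The 250 bases upstream of the annotated gene start were read for the named genes, from RefSeq sequence on build GRCm38.p6. Both strands were searched for a kappaB-type motif, spelled GGG, then 3 free bases, then TTCC, and for an interferon-stimulated response element, spelled GAAA, then 2 free bases, then GAAA. Of the 12 named genes lower in members than in Ccl3/Ccl4 neutrophils, 9 had a window and 4 of these held the kappaB-type motif, Cxcl2, Cxcl3, Il1rn and Nfkbia. Of the 9 windows of genes higher in members, 1 held it (Pirb), and of the 7 neutrophil genes of the rule 1 did (Csf3r). Of the 25 interferon response list genes with a window 8 held it (32%). Of Ccl3 and Ccl4 only 1 had a window, which did not hold it. The kappaB-type motif stood in 5.306% of 27025 genes with a window. A match is a description of the letters, not a binding site. The windows below show the densest matches, of Cxcl2 and Cxcl3, the single matches of Nfkbia and Csf3r, and the interferon element of Isg15, with motif letters in capitals and overlapping matches joined.
Cxcl2 (chr5:90903649-90903898, plus strand): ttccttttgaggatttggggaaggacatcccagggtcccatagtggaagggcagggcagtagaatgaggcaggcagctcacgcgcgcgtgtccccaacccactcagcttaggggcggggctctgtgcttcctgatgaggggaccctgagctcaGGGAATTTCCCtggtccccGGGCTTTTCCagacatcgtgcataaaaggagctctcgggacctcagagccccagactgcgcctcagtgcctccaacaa
Cxcl3 (chr5:90785851-90786100, plus strand): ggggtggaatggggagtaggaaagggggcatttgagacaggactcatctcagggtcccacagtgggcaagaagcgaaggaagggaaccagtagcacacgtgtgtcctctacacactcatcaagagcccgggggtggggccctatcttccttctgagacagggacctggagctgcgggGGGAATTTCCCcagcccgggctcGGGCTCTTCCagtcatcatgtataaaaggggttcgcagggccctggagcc
Nfkbia (chr12:55492648-55492897, minus strand): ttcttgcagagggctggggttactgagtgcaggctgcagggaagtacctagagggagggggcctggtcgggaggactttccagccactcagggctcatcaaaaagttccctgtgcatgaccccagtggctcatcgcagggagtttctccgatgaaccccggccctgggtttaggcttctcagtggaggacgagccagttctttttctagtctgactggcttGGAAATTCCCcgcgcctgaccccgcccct
Csf3r (chr4:126024409-126024658, plus strand): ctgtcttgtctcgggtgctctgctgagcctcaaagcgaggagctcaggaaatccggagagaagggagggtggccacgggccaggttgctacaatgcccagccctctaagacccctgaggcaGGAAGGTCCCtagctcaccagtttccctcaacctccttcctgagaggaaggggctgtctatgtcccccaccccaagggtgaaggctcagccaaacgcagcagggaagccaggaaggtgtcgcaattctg
Isg15 (chr4:156200819-156201068, minus strand): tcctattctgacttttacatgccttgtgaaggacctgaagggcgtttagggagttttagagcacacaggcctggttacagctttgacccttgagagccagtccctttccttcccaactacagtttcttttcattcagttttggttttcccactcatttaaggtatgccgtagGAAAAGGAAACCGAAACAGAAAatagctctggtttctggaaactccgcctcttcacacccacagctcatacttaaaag

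Cxcl2 and Cxcl3 each held 3 matches within the last 97 and 73 bases before the start, of which 2 lie on opposite strands of the same run of letters. Nfkbia held 1 match at 29 bases and Csf3r 1 match at 129 bases before the start. The window of Isg15 held 3 overlapping interferon elements from 78 to 66 bases before the start. Of the 25 interferon list genes with a window 11 held the element (44%), against 3.463% of all genes with a window. Only Isg15 and Ifitm2 of these 11 were among the 9 interferon genes measured between genotypes. Isg15 alone of the 5 interferon genes lower in slie/slie members was among the 11, and the window of Slfn4 held 0 matches. Of the 9 windows of the named genes lower in slie/slie members 0 held the element, and of the 9 on the higher side 1 did (Spp1). Among the 9 windows of genes lower in members than in Ccl3/Ccl4 neutrophils 2 held the element, Spp1 and Ppp1r15a. The kappaB-type motif stood in 0 of 9 windows of the named genes higher in slie/slie members, and in 2 of 9 on the lower side, Ifitm3 and Ltb.

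The 3 members of the slie/slie uninjured limb had 1182, 2281 and 2648 UMIs and no Ccl3 or Ccl4 UMI. In the order of those totals they held 54, 241 and 342 UMIs of S100a8 and 67, 54 and 477 of S100a9. Cxcl2 had 0, 4 and 0 UMIs and Il1b 7, 15 and 10, and Spp1, G0s2, Ngp, Ltf and Camp had 0 in all 3. Cd14 had 1, 21 and 1 UMIs, so most of it lay in 1 cell, which was also the cell with Cxcl2 and held 0 Retnlg UMIs where the others held 3 and 14. Summed over members, slie/slie injured had 727 Cxcl2 UMIs and slie/slie uninjured 4, 26.02-fold higher in CPM (10.1 to 95.7). Il1b was 3.42-fold higher (2.40 to 5.03) and S100a9 1.12-fold lower in injured than in uninjured slie/slie members. S100a8 was 1.96-fold lower (1.79 to 2.14). Lyz2, with 12 UMIs in injured and 33 in uninjured members, was 19.2-fold lower (9.67 to 40.9). Macrophage markers were at 351 CPM in injured and 982 CPM in uninjured members, the latter on 6 UMIs. The uninjured side rests on 3 cells of 1 library, and the control uninjured library held no member to set beside them.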

How the data were processed

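The deposited values are raw UMI counts, a matrix of genes by barcodes for each library. The authors' pipeline was Cell Ranger 5.0.1, as the file headers give it, with mm10 per the submitters' processing notes. The sources used here give neither annotation nor chemistry. Tissue was digested for 20 minutes with collagenase and dispase and passed through a 40 micron strainer, per the labels' protocols. The deposited control uninjured matrix held 991 of 1075 barcodes under 200 genes.

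Counts were summed over the members of a library (Python 3.11.15, numpy 2.4.6, scipy 1.17.1, pandas 2.3.3, figures with matplotlib 3.10.9) and given as CPM. Ratios carry an exact conditional binomial interval, levels an exact Poisson interval and shares a Clopper-Pearson interval, all at 95% and for counting error only. Genes with 30 or more UMIs over both sides were measured, and 2-fold was the call; a side at 0 was set to a floor of 3 UMIs. The ratio step was checked on simulated Poisson counts of the summed cells. These had no variation between cells, so the check does not cover UMIs gathered in single cells. Doublets were called with Scrublet in scanpy 1.11.5 and kept. Shares were also taken after thinning each cell to 500 UMIs. No test was run, since each group was 1 library.

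The members and the 22 gene lists, with the ribosomal list, were chosen with earlier results of these data known. Named genes were those of the rule and markers, the 15 with the most CPM, the 12 on each side with the ratio bound farthest from 1 for each comparison (against Ccl3/Ccl4 neutrophils, the weaker library's bound), list members and Ddr2; mitochondrial, ribosomal, hemoglobin, predicted and sex-linked genes were left out of the ranked sets. The result of 1 named gene is not reported here. Alternatives changed the limits on Ccl3 and Ccl4, neutrophil share, genes, mitochondrial UMIs, doublets, depth, weighting, deep cells, denominator and UMIs per gene, plus 3 added after the values were seen.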

Additional observations from a re-analysis of the deposited data

Results flagged for a closer look

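For Tnfrsf23 and Ptma the genotype ratio had opposite signs in the 2 kinds of neutrophil of the injured limb, and the difference was not tested. They were not the only such genes. Emd, Slpi and Jdp2 were also higher in slie/slie members and lower in slie/slie Ccl3/Ccl4 neutrophils. Tnfrsf23 had a log2 ratio of slie/slie over control of 2.63 in members and -1.30 in Ccl3/Ccl4 neutrophils, and 21 of its 33 slie/slie member UMIs lay in 1 cell. Ptma had -2.77 in members, on 3 slie/slie UMIs, and 1.20 in Ccl3/Ccl4 neutrophils, on 23 UMIs in each genotype.

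Outside the barcode filter, 12 of 129 slie/slie injured barcodes met the marker limits with 10 or more UMIs of the 7 neutrophil genes, against 0 of 91 control injured barcodes. They had medians of 310 UMIs and 143 genes. The smallest deposited barcode had 259 UMIs in the slie/slie and 500 in the control injured library, so barcodes under 500 UMIs of the control injured limb were not analysed here.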

How the results depend on the processing

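No paired analysis was possible because each group was 1 library, and for the same reason no replicate could be left out. Requiring 0.5% mitochondrial UMIs left 3 slie/slie and 15 control injured members: shares became 3.19% and 4.03%, and 6 genes were higher and 10 lower in slie/slie of 53 measured. All 13 slie/slie and 31 of 34 control Ccl3/Ccl4 neutrophils were under 0.5%, so this setting left no slie/slie cell to compare with. The count of 0 higher and 0 lower of 10 genes against Ccl3/Ccl4 neutrophils in both libraries was therefore fixed in advance. This setting turned Slpi (log2 ratio -0.72 between genotypes) and, against control Ccl3/Ccl4 neutrophils, Ier3 (1.28) and Pirb (-0.86). Thinning to 500 UMIs gave 25 higher and 32 lower of 286 between genotypes, and 2 higher and 10 lower of 70 against Ccl3/Ccl4 neutrophils. A minimum of 50 UMIs gave 46 genes lower in slie/slie members (of 506) and 13 higher than in Ccl3/Ccl4 neutrophils (of 160), and leaving out the 3 deepest cells gave 16 (of 209); all of these measured fewer genes. The control member share was 11.3% with no Ccl3 or Ccl4 UMI and 11.2% at 500 genes. Of 294 single-gene values between genotypes 257 stayed inside the counting interval of the reported ratio, 36 moved and 1 reversed; against Ccl3/Ccl4 neutrophils 490 of 573 stayed, 81 moved and 2 reversed. Of 305 list medians 11 moved by over 0.5 and 0 reversed. Il1f9 was at -0.04 after thinning, Col1a1 at -0.05 with a minimum of 100 genes and Fabp5 at -1.12 with 500 genes, and Retnlg was at 0.50 with all cells and -0.36 without the cell with most in each library. Counting error is widest for genes with few UMIs in slie/slie members. Alternatives on foreign markers, 100 genes and single top cells were chosen after seeing the data.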

Other observations

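The members of the injured limb also carried Actg1, a cytoplasmic actin, at 8596 CPM in slie/slie and 4535 CPM in control members, 1.90-fold higher, and Actb at 12344 and 9773 CPM. S100a11, a calcium-binding protein outside the rule, was at 8385 CPM in slie/slie and 7630 CPM in control members. Malat1, a nuclear RNA, was at 72307 CPM in slie/slie and 67318 CPM in control members, and Gm42418, a predicted gene, at 9978 and 11428 CPM.

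Of the 3 slie/slie uninjured members, the 2 with Retnlg held 9 and 45 UMIs of Wfdc17 and 5 and 15 UMIs of Wfdc21, and the cell without Retnlg held 4 and 2.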
